A study of Mus musculus with 4 samples.

Results

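The genes described here encode the core of the RAS signalling cascade: the small GTPases Nras and Hras, the RAF kinases Braf and Araf, the MEK kinases Map2k1 and Map2k2, and the ERK kinase Mapk3. They were chosen by symbol, as every probe set (a group of short probes on an Affymetrix array that together read 1 transcript) whose platform annotation names one of these 7 genes. Of the 7, 5 genes had annotated probe sets, 20 in all out of 34945 with a single gene symbol. Hras and Mapk3 were not analysed here. All 5 genes passed the filter on level, through their brightest probe set, as did 13522 of 18193 genes in total.

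RNA came from tumours that the mouse melanoma line iNRAS-475 formed in the dermis of nude mice drinking water with doxycycline at 2 mg/ml, the drug that keeps NRAS switched on in this line. They grew for 6 weeks to between 200 and 500 mm3, and were taken while the drug was still given (the on array) or 24, 48 or 72 h after its withdrawal. Every condition was 1 array, the tumour cells of all of them descend from 1 line, and nude mice lack mature T cells. The labels give neither the host's age nor the sequence, species or mutation of the inducible NRAS.

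With no replicates, differences carry no error, and having only 4 arrays limits their precision. Median intensities were between 33.3 and 34.0. The tumours expressed Sox10, a transcription factor of the melanocyte lineage, at intensities from 3613 to 4681, while the pigment genes Tyr, Tyrp1, Mlana and Dct were at or under 34.7 on each array. The other melanocyte markers were dim but higher on the later arrays, Pmel at 73.1, 49.8, 103 and 200 and Mitf at 50.3, 56.5, 93.1 and 115 in time order. RNA of host cells varied: the summed intensity of 7 macrophage markers was 4856, 8694, 7120 and 13238 on the on, 24, 48 and 72 h arrays, that of 5 fibroblast and matrix markers 9643, 10547, 20652 and 40853, and that of 6 skeletal muscle markers 220, 510, 205 and 4203. Col1a1 and Col1a2 made up most of the fibroblast and matrix sum on each array. In the same list Pdgfra was lower on the later arrays, at 404, 441, 261 and 262. Dcn and Lum were highest at 72 h, but at 24 h they were below the on array. No marker was at 0. In such bulk samples fewer cells of a type and less RNA per cell cannot be told apart, and the part of host cells in the values below was not tested.

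RAS proteins are membrane-bound switches that bind GTP when a receptor or a mutation turns them on. They then recruit RAF kinases, which phosphorylate MEK, which phosphorylates ERK, and ERK carries the signal to transcription factors and other targets. In melanoma this chain is commonly driven by mutant NRAS or BRAF. Most of its control acts on the proteins, by GTP loading and phosphorylation, neither of which an expression array measures.

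The transcripts of the cascade stayed close to their level on doxycycline, with Nras at 24 h and Map2k1 at 48 h as the exceptions. Differences are given as off minus on, on the scale log2(intensity + 32), and a gene is called different where the difference is at least 0.5 in size, a change of about 1.41-fold. At 24 h 1 of the 5 members was past this threshold, Nras, against 3.1% of all genes. At 48 h it was 1 of 5, Map2k1, against 9.26%, and at 72 h 0 of 5, against 13.8%. No member reached a difference of 1 at any time, and few genes did. Of all 13522 genes 36, 102 and 309 were higher by at least 1 at 24, 48 and 72 h. At the same times 9, 141 and 220 were lower by as much. The median difference of the members was 0.11 at 24 h and 0.00 at 48 and 72 h, where the median of all genes was 0 each time. These comparisons share the on array, so an error in it would move all of them together.

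**Figure D1:**
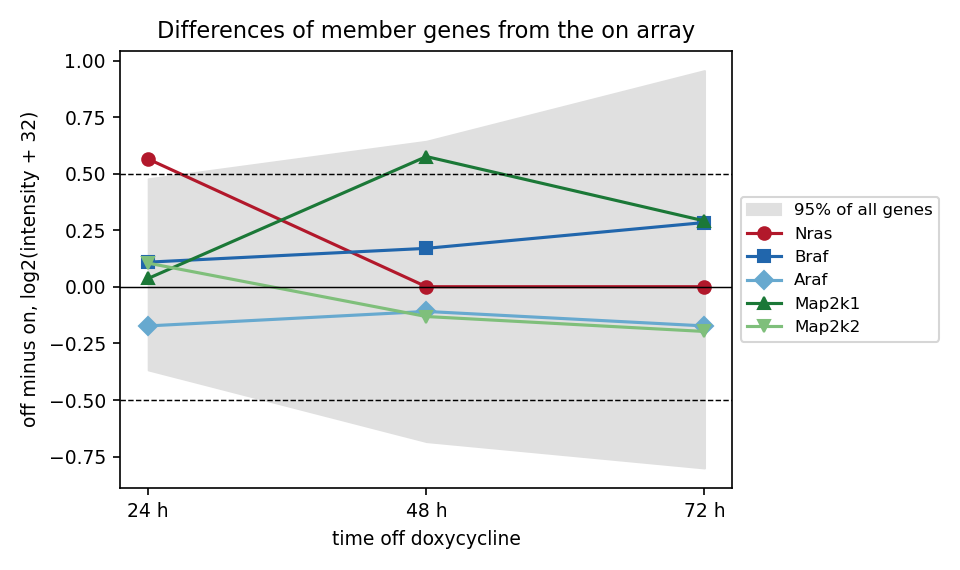
Difference of each of the 5 genes from the on array at 24, 48 and 72 h off doxycycline, on the scale log2(intensity + 32), with 1 array per time and no error bars; the grey band holds 95% of all 13522 genes and the dashed lines mark 0.5 in either direction. Nras at 24 h, at 0.57, lies above the band, Map2k1 at 48 h, at 0.58, lies inside it, and Braf, Araf and Map2k2 stay within the dashed lines.

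Nras, the mouse gene for the GTPase that the doxycycline system drives in this line, read higher at 24 h than on any other array. It lies on chromosome 3 (chr3:103058285-103067914 in GRCm38.p6). The brightest of its 3 probe sets had an intensity of 163 with the drug, 256 at 24 h and 163 on both later arrays. The 24 h array alone was high, and the values at 48 and 72 h were equal to each other and within 0.001 of the on array on the log2 scale. The difference at 24 h was 0.57, a ratio of intensities of 1.57, and 2.02% of all genes differed by as much. The other probe sets were also highest at 24 h, with smaller differences of 0.25 and 0.28, so that the mean over the probe sets, 0.36, was not past 0.5; nor was the brightest with quantile normalization (0.48) or a pseudocount 4 times as large (0.40). At 72 h they were slightly below the on array, at -0.03 and -0.06. All 3 probe sets lay above the on array at 24 and at 48 h, as did those of 19.1% and 19.2% of the 2366 genes with 3 probe sets. Whether these probes also bind the transcript of the inducible NRAS is not known from the labels, so the values do not check the state of the transgene.

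Braf and Araf, the RAF kinases that RAS recruits, took different courses, and neither reached 0.5 by its brightest probe set. Braf (chr6:39603231-39725658) had intensities of 144, 158, 166 and 182 on the on, 24, 48 and 72 h arrays, each array higher than the one before. Its difference was 0.11, 0.17 and 0.28 in turn, and 27.4% of all genes differed by at least as much at 72 h. A second probe set read 64.2, 101, 88.4 and 124, the highest value again at 72 h but with 48 h below 24 h. Its difference at 72 h, 0.70, was the only one of the 20 probe sets past 0.5 at that time, when 8.32% of all annotated probe sets were. One more, at 49.2, 56.7, 72.6 and 57.5, was highest at 48 h instead. All 9 Braf probe sets lay above the on array at 24 and at 48 h and 8 of 9 did at 72 h. Of all annotated probe sets 46.4%, 46.1% and 43.2% were higher at these times. Of the 856 genes with 5 or more probe sets, 11.4% at 24 h and 11.7% at 48 h had all of them higher. That group is wider than genes with 9 probe sets, so it is a rough background only. Probe sets of a gene read the same RNA and are no replicates, and 4 of the Braf probe sets had a mean intensity under the level filter of 24.9.

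Araf, the X-linked RAF gene (chrX:20797707-20860521), was highest on doxycycline by its brightest probe set. Over the same arrays it read 162, 140, 148 and 140, and its differences were -0.17, -0.11 and -0.17. The next probe set, of the kind that can match several transcripts, read 136, 135, 156 and 136, so it put the highest value at 48 h. These probe sets disagree on the direction at 48 h, at -0.11 and 0.17, and the other 3 were at or under 17.3 on every array.

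Map2k1, which encodes MEK1, stood apart at 48 h, whereas Map2k2, which encodes MEK2, varied less. The only Map2k1 probe set (gene at chr9:64185769-64253605) read 596 and 613 on the on and 24 h arrays and 905 and 737 on the 48 and 72 h arrays. The on and 24 h arrays were alike, the 48 h array was highest and the 72 h array lay between. Its differences in time order were 0.04, 0.58 and 0.29, and 6.78% of all genes differed by as much at 48 h. With a single probe set there is no other reading to compare. Map2k2 (chr10:81105913-81124697) read 391, 423, 354 and 337, with differences of 0.11, -0.13 and -0.20. Its highest value was thus at 24 h and its lowest at 72 h. A dimmer Map2k2 probe set read 139, 140, 143 and 139 and differed from the on array by at most 0.04.

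**Figure D2:**
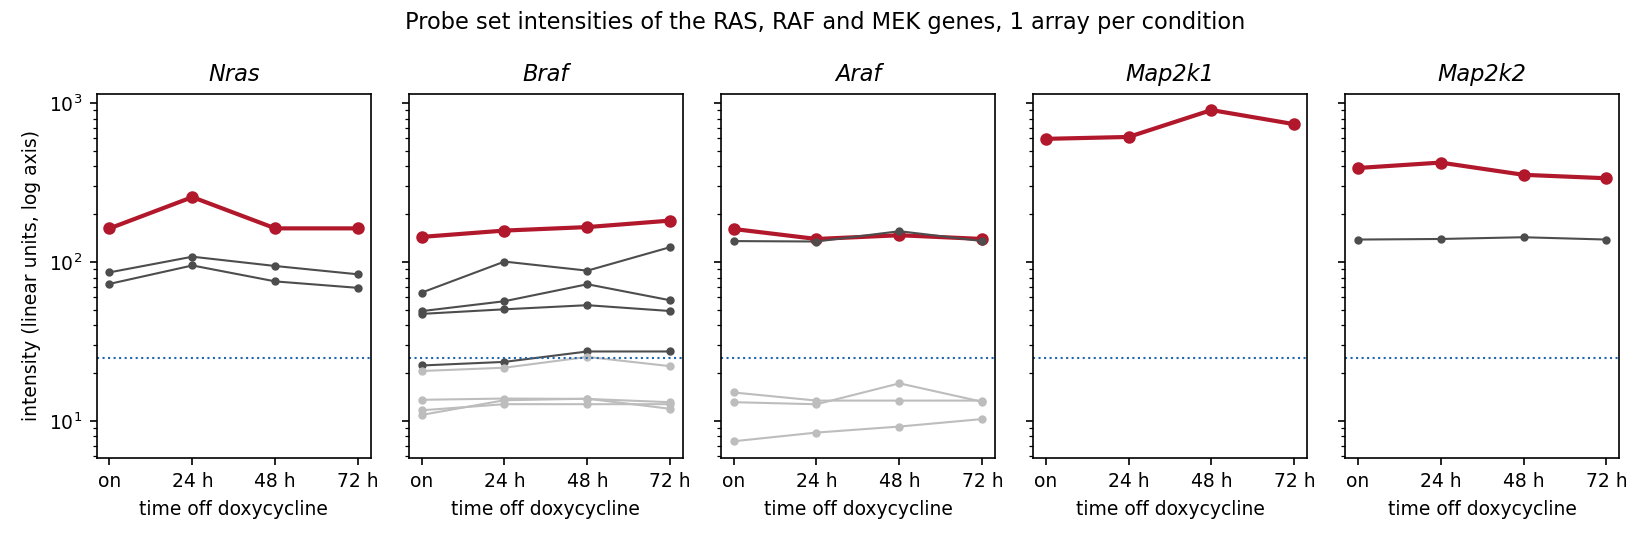
Intensity of every probe set of Nras, Braf, Araf, Map2k1 and Map2k2 on the on, 24, 48 and 72 h arrays, on a log axis; red marks each gene's brightest probe set, dark grey the others past the level filter, light grey those under it, and the dotted line the filter at 24.9. The Nras probe sets peak together at 24 h, Map2k1 goes from 596 to 905 at 48 h, and the dim Braf and Araf probe sets lie between 7.46 and 25.3.

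Between off arrays, a comparison without the on array, Nras and Map2k1 differed in opposite directions. From 24 to 48 h Nras was lower by a difference of -0.56 and Map2k1 higher by 0.54, so 2 of 5 members were past 0.5, against 8.53% of all genes. With a pseudocount 4 times as large 0 of 5 were, and with the mean over probe sets 1, since Nras was then at -0.32. Braf, Araf and Map2k2 differed by 0.06, 0.06 and -0.24 over this step. From 48 to 72 h 0 of 5 members were past 0.5, against 5.03% of all genes, and the differences ran from -0.28 for Map2k1 to 0.11 for Braf. Nras was equal on these arrays by its brightest probe set only. Its dimmer probe sets fell over this last step, by -0.13 and -0.09.

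Over all 4 arrays no member was called for a linear trend with hours off doxycycline, in a fit that called no gene at all. This was limma's fit of a straight line, which has 2 residual degrees of freedom. In it 0 of 5 members passed an adjusted p under 0.05, and neither did any other gene (0%). The lowest limma adjusted p was 0.241. Dusp4, an ERK output gene with a slope of -3.62 per 72 h, was at that value. So was Map3k1, a gene of another MAP kinase module, with a slope of 0.50. As neither a large nor a small slope was called, the fit cannot decide on those of the members. Braf had the most even course, with a slope of 0.27 ± 0.07 (SE) per 72 h; its limma adjusted p was 0.266, and over the alternatives it ranged from 0.220 to 0.616. Braf was the only one of the 5 members with an unadjusted limma p under 0.05, at 0.0217, as had 15.6% of all genes, 2103 in number. It was not under 0.05 with quantile normalization, with the off arrays pooled, or without the on, 48 h or 72 h array. The slope of Map2k1 was 0.42 ± 0.27, that of Map2k2 -0.25 ± 0.13, that of Araf -0.14 ± 0.10 and that of Nras -0.17 ± 0.36. A straight line cannot show a level that is high at 1 time, such as that of Nras. A p that misses the threshold does not show that a gene is the same on all arrays.

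Promoters are shown for Nras and Map2k1, which passed 0.5, and for Braf, most of whose probe sets lay above the on array; they are context only, since the arrays do not measure them. Each window runs from 250 bases before to 50 after a start of transcription and is written 5′ to 3′ on the strand of the gene. The windows are from RefSeq on GRCm38.p6, which held a window for each of the 5 genes. For Braf, Araf and Map2k2 the start used lies inside the gene span given above, so it is not the outermost start of the gene. The windows are chr3:103058035-103058334 on the plus strand for Nras, chr6:39725414-39725713 on the minus strand for Braf and chr9:64253556-64253855 on the minus strand for Map2k1. Capitals mark GGGCGG, the GC box bound by SP1, and TGACGTCA, the cyclic AMP response element, on either strand.
Nras: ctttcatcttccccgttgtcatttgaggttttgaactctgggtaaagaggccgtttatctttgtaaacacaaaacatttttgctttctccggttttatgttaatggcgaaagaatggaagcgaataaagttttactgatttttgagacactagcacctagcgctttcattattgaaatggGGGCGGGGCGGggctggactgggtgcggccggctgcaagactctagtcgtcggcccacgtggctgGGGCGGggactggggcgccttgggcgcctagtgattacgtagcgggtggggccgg
Braf: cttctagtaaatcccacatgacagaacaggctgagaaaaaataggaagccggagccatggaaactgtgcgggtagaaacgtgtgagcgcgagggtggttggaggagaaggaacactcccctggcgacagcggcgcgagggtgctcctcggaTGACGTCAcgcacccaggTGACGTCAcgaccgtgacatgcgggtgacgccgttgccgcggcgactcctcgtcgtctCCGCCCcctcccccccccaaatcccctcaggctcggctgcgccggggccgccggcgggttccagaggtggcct
Map2k1: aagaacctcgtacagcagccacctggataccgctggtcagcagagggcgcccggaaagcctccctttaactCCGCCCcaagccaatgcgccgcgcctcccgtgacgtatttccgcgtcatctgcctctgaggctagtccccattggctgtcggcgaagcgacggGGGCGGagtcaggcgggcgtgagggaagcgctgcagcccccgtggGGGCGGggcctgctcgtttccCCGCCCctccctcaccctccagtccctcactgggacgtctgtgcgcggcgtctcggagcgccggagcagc

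The GC box occurs 3 times in the Nras window, where 2 of the matches overlap each other, 1 time in that of Braf, 4 times in that of Map2k1 and 2 times in that of Map2k2, with none in that of Araf. It is common, being present in 35.7% of the 32851 windows. Braf was the only member with TGACGTCA, while 1.79% of all windows hold it. Its 2 copies start at -99 and -81 from the start site of the window, and both lie inside the gene span given above. The letters TGANTCA (AP-1), CCGGAAGT (ETS) and TATAAA were in none of the 5 windows, and are in 7.81%, 3.89% and 13.6% of all windows. The base composition was 52.3% G and C for Nras, 65.0% for Braf and 69.0% for Map2k1, against a median of 52.7% over all windows. A match of letters is no evidence that a factor binds there.

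The genes whose course over the 4 arrays was nearest to that of each member were found by the root mean square distance between log2 profiles centred on their own means. For Nras these were Uba6, at a distance of 0.0085, Nemf, at 0.0099, Il1b, at 0.013, Rcor1, at 0.021, and Nucks1, at 0.025. All 5 were high at 24 h alone: Uba6 read 108 on doxycycline, 178 at 24 h and 108 at both later times. Within 0.05 of Nras there were 17 genes, and within 0.05 of Map2k1 13, of which Golph3l (0.014) and Mlph (0.016) were nearest. Braf, Araf and Map2k2, whose courses were flatter, had 396, 988 and 244 genes that near. The nearest were Zfp839 and Rwdd2b for Braf, Bhlha15 and Cpa4 for Araf, and Gemin5 and Adsl for Map2k2. With 4 arrays such likeness is a description only.

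The other genes of the pathway were grouped by role in 9 lists, of which 8 held measured genes; the 3 further RAS, RAF and ERK paralogues of the ninth were not analysed here. Of the 92 genes listed 84 were annotated and 76 passed the level filter. At 24 h 2 of the 76 were past 0.5 (1 higher, 1 lower), at 48 h 17 (5 higher, 12 lower) and at 72 h 18 (9 higher, 9 lower), which is 2.63%, 22.4% and 23.7%, beside the shares of all genes given above. With the mean over a gene's probe sets the counts were 0, 6 and 10, and with a pseudocount 4 times as large 17 became 9. The shares of all genes under these settings were not computed. So these counts do not tell whether the later shares stay above those of all genes. Their median difference was 0.01, 0.04 and 0.00. So the 76 genes as a pool differed from the on array in both directions and had no common shift. Some single lists were uneven. At 72 h 8 of the 9 relatives of RAS were below the on array and 1 above. Of the 11 exchange factors and adaptors 9 were above it and 2 below, where 46.8% of all genes were above. Some of the 9 were near 0. Rasgrp4 was at 0.05 and Shc1 at 0.002, with another Shc1 probe set at -0.27. In the limma trend fit 0 of the 76 genes passed after adjustment and 18 had an unadjusted p under 0.05.

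Among the relatives of RAS, 8 of 9 were below the on array at 24, 48 and 72 h by the brightest probe set, with medians of -0.09, -0.24 and -0.22. Of all genes 43.0%, 45.5% and 43.7% were below it. Some of these differences were small: at 72 h Rit1 and Ralb were both at -0.02, and their other probe sets were above the on array, at 0.28 and 0.19. Mras, a GTPase that acts with Shoc2 on RAF, read 536 and 457 on the on and 24 h arrays and 232 and 215 on the later ones. The later arrays were both far below the earlier ones, and the difference at 72 h was -1.20, with another probe set at -1.67. Rras2 read 407, 387, 224 and 186, a difference of -1.01 at 72 h, although another probe set was at -0.18. Rala, an effector GTPase, was at -0.78, although its other probe sets were near 0 (-0.0012 to 0.03).

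Upstream of RAS, the adaptor Gab1, a docking protein for receptor tyrosine kinase signals, was the furthest above the on array of the 76 genes at 48 and 72 h. Its intensities in time order were 188, 201, 550 and 730, and the difference at 72 h was 1.79. Its other probe sets were at 1.36 and 1.43, so the whole set read alike. Sos1, the exchange factor that loads RAS with GTP, was at 0.51, with other probe sets between -0.07 and 0.05. These were the 2 of 11 adaptors and exchange factors past 0.5 at 72 h, against 13.8% of all genes. Of the 8 GTPase-activating proteins, which switch RAS off, 0 were past 0.5 at 72 h, and Nf1, the best known of them, was at -0.11.

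Around RAF and RAS, the scaffold Iqgap1, the RAF-binding adaptor Ywhaz and the HSP90 cochaperone Cdc37 were lower at 72 h, at -0.94, -0.76 and -0.69. They were the 3 of 13 scaffolds and RAF regulators past 0.5, against 13.8% of all genes. Other probe sets ran from -1.18 to 0 for Iqgap1 and from -0.87 to -0.03 for Ywhaz, and that of Cdc37 was at 0. The subunits of farnesyltransferase, which attaches the lipid that RAS needs at the membrane, went opposite ways: Fnta read 721, 770, 1124 and 1216 and Fntb 259, 303, 184 and 159, so that at 72 h they differed from the on array by 0.73 and -0.61. No other of the 9 processing genes was past 0.5 at that time.

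In parallel and downstream kinases, Mknk1 and Mknk2, which ERK activates and which phosphorylate a translation factor, were higher at 72 h. Mknk1 read 78.9, 114.0, 128.4 and 167.5, and Mknk2 333, 333, 388 and 632, with differences of 0.85 and 0.86 at 72 h. Other probe sets were lower, from -0.25 to 0.23 for Mknk1 and at 0.29 for Mknk2. They were 2 of the 3 measured kinases downstream of ERK, and both were past 0.5, as were 13.8% of all genes. Rps6ka3, which encodes the kinase RSK2, was at -0.15. In the other MAP kinase modules, 3 of 14 genes were past 0.5 at 72 h, against 13.8% of all genes. They were Map2k3, an activator of the p38 kinases, at -0.92, the JNK gene Mapk9 at 0.89 and Map3k1 at 0.51. Other probe sets of Mapk9 were at 0.30 to 0.49 and that of Map3k1 at 0. Map2k3 read 647, 590, 268 and 328, so unlike Map2k1 it was lowest at 48 h. Of the 9 other effectors of RAS, the Ral exchange factors Rgl2 and Rgl1 were higher at 0.76 and 0.74 and Rin1 lower at -0.60. Another Rgl1 probe set was at 0.43. Rin1 read 40.4, 35.3, 17.0 and 15.9, so it passed the level filter only through the earlier arrays, and its other probe set was at 0.

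**Figure D3:**
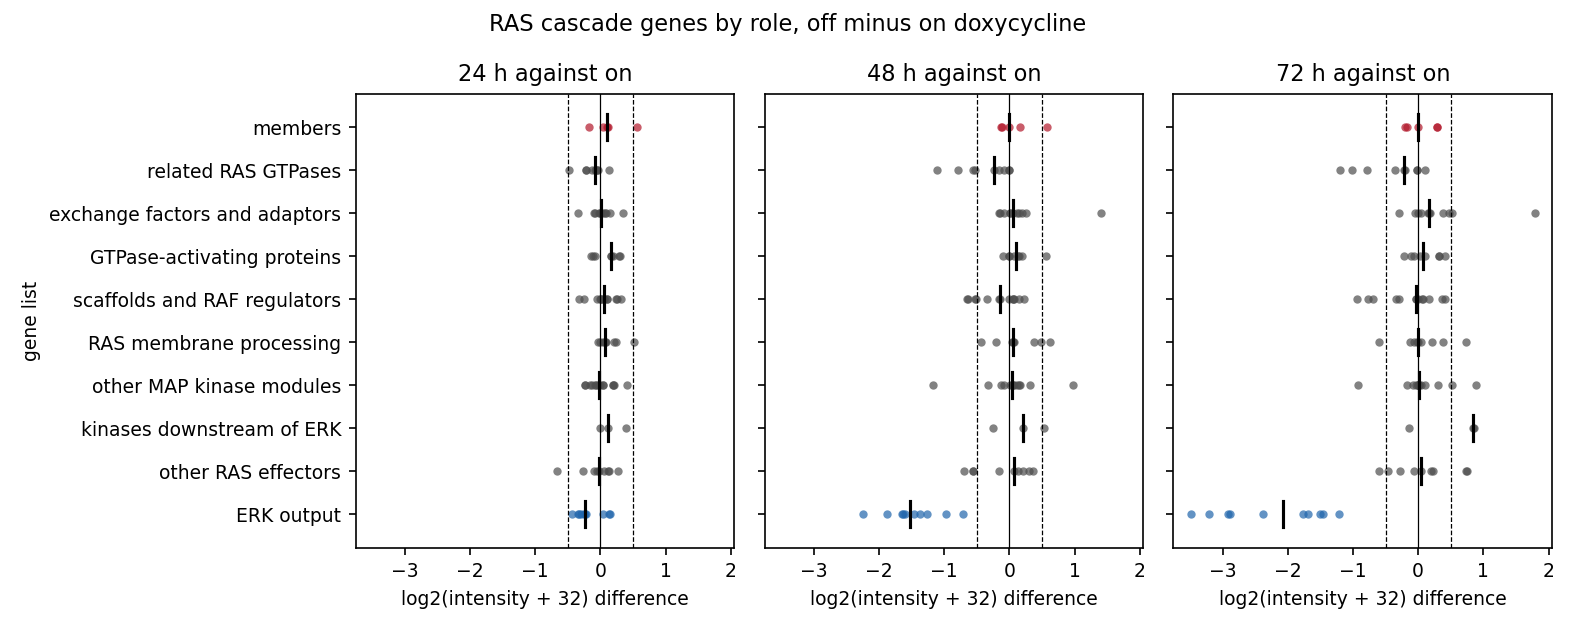
Differences from the on array at 24, 48 and 72 h for the 5 member genes (red), the 76 other pathway genes by role (grey) and 10 ERK output genes (blue), on the scale log2(intensity + 32); each point is 1 gene, the black bar is the list's median, and the dashed lines mark 0.5. The members lie between -0.20 and 0.58 at every time, Gab1 reaches 1.79 at 72 h, and the ERK output genes are all below -0.5 at 48 and 72 h.

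Chosen transcripts known to be driven by ERK differed more in size from the on array than the 5 members at 48 and 72 h. At 24 h they did not. For 10 output genes, picked with their values in these data known and so no independent evidence, the median was -0.24, -1.53 and -2.08 at 24, 48 and 72 h, with 0, 10 and 10 of 10 lower by 0.5 or more by the brightest probe set. Of all 13522 genes 126, 642 and 746 were lower by as much at these times. Not all readings of the output genes passed at the last time: further probe sets for Etv4, Spry2 and Spry4 gave 0.05, -0.08 and values from -0.24 to -0.11. Over the same arrays the 5 members ranged from -0.17 to 0.57, from -0.13 to 0.58 and from -0.20 to 0.29.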

How the data were processed

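The deposited table holds 1 intensity on a linear scale for each of 45037 probe sets and 4 arrays. Per the labels' protocols, 10 ug of total RNA gave the labelled cRNA. The submitters' processing notes list MAS5 and RMA without a role, so the source and scaling of these values are not stated. Equal values are frequent: 48.0% of probe sets had a tie between arrays, as did 7 of the 20 member probe sets, and 27 of the 80 member values also occur at another probe set. The origin of the ties is unknown and their effect was not tested.

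Symbols came from the platform annotation: 34945 probe sets had 1 symbol, 932 several and 9160 none listed; those with 1 were used. The probe set with the highest mean stood for a gene. Genes under the 40th percentile of mean intensity (24.9) were left out. No further normalization was applied before log2(intensity + 32). The trend was fitted with limma 3.58.1 (R 4.3.3; lmFit, eBayes with trend) on hours, with Benjamini-Hochberg adjustment over 13522 genes. It was also tested on simulated data with noise of the same spread for every gene. There it called 100 of 100 genes with a log2 change of 1 over 72 h, 100 of 100 with a change of 2 and 11 of 13322 unchanged genes. The arrays are less even, and on them the fit called 0 genes, not even Dusp4 at a slope of -3.62. So the simulation does not measure what the fit can find in these data. Other steps used Python 3.11.15 (pandas 2.3.3). Genes named were the members, the list genes past 0.5 at 72 h (up to 4 a list) and those nearest in course (5 for Nras, 2 for each other member). Nf1, Rps6ka3, Rit1, Ralb, Shc1, Rasgrp4, Dusp4 and the cell type markers named were chosen after their values were seen. Alternatives were pseudocounts of 8 and 128, quantile normalization, median centring, removal of _x_at and _s_at probe sets, averaging of a gene's probe sets, a level filter at the 60th percentile or none, limma without trend, the off arrays pooled, and each array left out. Members and lists were chosen with earlier results of these data known.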

Additional observations from a re-analysis of the deposited data

How the results depend on the processing

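Of 200 recomputed member differences 82 equalled the first value, nearly all because the level filters, the kind of probe set or an average of 1 probe set could not move them. Of the other 118, 6 crossed 0.5 and 0 changed sign while past it. The call of Nras at 24 h was lost with a pseudocount of 4 times 32 (0.40), quantile normalization (0.48) and the mean over probe sets (0.36), so that 0 members were past 0.5 at 24 h under each of these. From 24 to 48 h the count of members went from 2 to 0 with the pseudocount of 4 times 32 and to 1 with the mean over probe sets. The difference of Map2k1 at 48 h against the on array was between 0.51 and 0.64 under the 4 settings that could move it (pseudocounts, quantile normalization and median centring). The count of other pathway genes past 0.5 at 24 h, 2, became 1 with the pseudocount of 4 times 32 and 0 with the mean over probe sets. At 48 h it went from 17 to 9 and 6 in turn, and at 72 h from 18 to 10 with the mean. From 24 to 48 h it went from 11 to 7 with the pseudocount of 4 times 32, and from 48 to 72 h from 1 to 3 with a pseudocount of 8 and to 0 with the mean over probe sets. The causes were not tested. In limma's trend fit 0 genes passed under every alternative, the pooled fit and each left-out array included; between 1046 and 2309 genes had an unadjusted p under 0.05. No paired analysis was possible because each condition is 1 array. Dim probe sets limit what Araf and Braf can show.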
